A study of Homo sapiens with 4 samples.

Results

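The genes examined here code for 7 subunits or partners of AP-1, namely FOSL1, FOSL2, FOS, JUN, JUNB, JUND and ATF3. Their surroundings were described in the peak lists of CTCF and of histone H3 acetylated at lysine 27 (H3K27ac) from DU145, an established human prostate cancer line grown from a brain metastasis. The members are all peaks that overlap the hg19 interval of a gene widened by 50 kb on each side, a rule that uses position only. They came to 80 of 50364 H3K27ac peaks and 39 of 36152 CTCF peaks, or 119 peaks in all, in 798.0 kb of sequence. The series holds 4 libraries. These are formaldehyde-fixed DU145 chromatin precipitated for CTCF, the same for H3K27ac, unprecipitated DU145 chromatin (input), and input of LNCaP, an established prostate cancer line from a lymph node metastasis. The cells grew in serum-containing medium, and the labels name no treatment or mutation. Only the CTCF and H3K27ac lists were used. With a single library per mark there is no replicate error and no test was made. Intervals cover counting error only, and reads without molecular identifiers are not independent molecules.

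AP-1 is a dimer of basic leucine zipper proteins. JUN, JUNB and JUND can pair with each other or with a FOS-type partner, while FOS, FOSL1 (also called FRA1) and FOSL2 (FRA2) bind DNA only with a partner, usually a JUN protein. ATF3 is a stress-induced relative that also pairs with JUN proteins. The dimers bind the AP-1 site or the related cyclic AMP response element (CRE). FOS, JUN, JUNB and ATF3 are classic immediate early genes, switched on within minutes of growth factor or stress signals, FOSL1 follows later and is itself a target of AP-1, and JUND is made steadily in most cells. H3K27ac is a mark of promoters and enhancers in use, while CTCF is a zinc finger protein that stops loop extrusion and so helps to set which enhancers can meet which promoters.

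Promoter sequence was available for 6 of the 7 genes, as RefSeq entries in the build GRCh38.p14, and not for FOSL1. Shown are the 250 bases before the annotated start, 5′ to 3′ on the gene's own strand, of the 3 genes that hold a complete 8-letter site that AP-1 or ATF dimers are known to bind, and of FOS, which holds the core of a CRE. Capitals mark the CRE TGACGTCA, the site TGACATCA known from the JUN promoter, and the CRE core TGACG, on either strand.
JUN: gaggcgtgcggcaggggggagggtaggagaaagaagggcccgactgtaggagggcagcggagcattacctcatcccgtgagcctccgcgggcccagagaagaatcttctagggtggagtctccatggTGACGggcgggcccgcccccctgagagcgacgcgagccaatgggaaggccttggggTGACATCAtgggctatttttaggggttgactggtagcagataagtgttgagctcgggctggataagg
JUND: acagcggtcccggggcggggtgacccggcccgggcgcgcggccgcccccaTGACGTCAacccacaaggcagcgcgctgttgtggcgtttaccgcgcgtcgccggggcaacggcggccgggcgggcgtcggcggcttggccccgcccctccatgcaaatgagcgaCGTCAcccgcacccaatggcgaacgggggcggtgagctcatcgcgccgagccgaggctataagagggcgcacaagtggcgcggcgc
ATF3: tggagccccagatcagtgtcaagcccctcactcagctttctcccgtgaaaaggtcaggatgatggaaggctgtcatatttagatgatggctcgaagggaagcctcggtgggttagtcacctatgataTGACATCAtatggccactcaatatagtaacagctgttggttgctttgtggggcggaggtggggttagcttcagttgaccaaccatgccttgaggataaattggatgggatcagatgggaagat
FOS: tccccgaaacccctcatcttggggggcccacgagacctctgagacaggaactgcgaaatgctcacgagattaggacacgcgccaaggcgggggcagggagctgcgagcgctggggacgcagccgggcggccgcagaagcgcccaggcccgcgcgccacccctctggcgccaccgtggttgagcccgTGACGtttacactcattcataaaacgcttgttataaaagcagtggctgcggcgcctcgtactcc

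TGACATCA lay 67 to 60 bases before the start of JUN and 123 to 116 bases before the upstream start of ATF3, and 2.37% of all 35116 promoter entries hold it in the same 250 bases. TGACGTCA lay 200 to 193 bases before the start of JUND, and 1.65% of entries hold it. It contains the 5-letter core TGACG on both strands. That core lay 64 to 60 bases before the start of FOS, 137 to 133 bases before that of JUNB, 66 to 62 and 201 to 197 bases before that of FOSL2, 123 to 119 bases before that of JUN, and a further time in JUND at 86 to 82 bases. The core was thus held by 5 of the 6 genes, and by 21.2% of entries, a share of entries and not of genes. The core contains the letters CG, and the entries were not matched to these genes by base content. The 6 genes have 7 entries, because ATF3 has another at a start farther downstream, which holds none of the strings searched. The AP-1 site TGACTCA was in the 250 bases of none of the 6 genes, against 4.20% of entries. With a share that low, none among 6 genes is the usual outcome. Starts without an entry were not searched. Both strands were searched, and a match is a string of letters, not a site shown to be bound. The sequences are given without hg19 positions, because no genome of the lists' build was used.

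Strong H3K27ac peaks lay at or beside the starts of FOSL1, FOSL2, FOS, JUN, JUNB and JUND, but not at the upstream start of ATF3. A start here is the 5′ end of an interval rounded to 1 kb, so distances from it carry that error. The amount of acetylation differed widely between windows, and FOSL1 had by far the most. H3K27ac peaks took up 40.8 kb of its 109.0-kb window, or 37.4%, in 19 peaks. FOSL2 followed with 19.5 kb (16.0%, 19 peaks). JUNB and JUND were nearly equal, with 12.8 kb each (12.55% in 13 peaks and 12.52% in 12 peaks). JUN had 9.20 kb (8.85%, 7 peaks), FOS 5.84 kb (5.61%, 4 peaks) and ATF3, whose window is longest at 155.0 kb, 5.62 kb (3.63%, 6 peaks). Together 13.3% of window bases were acetylated, and FOSL1 contributed 38.3% of them. Over all 30931 bins of 100 kb on the assembled chromosomes the median was 0% and the 90th percentile 4.05%. Over the 11326 bins with an H3K27ac summit the median was 2.04% and the 90th percentile 9.05%. FOSL1 exceeded 99.9% of all bins and 99.7% of acetylated bins. ATF3, the lowest, exceeded 88.8% of all bins and 69.5% of acetylated bins. The bins are placed without regard to genes, while the windows are centred on genes and longer than 100 kb. Windows around other genes were not examined, so these percentiles do not set AP-1 genes apart from other genes.

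**Figure D1:**
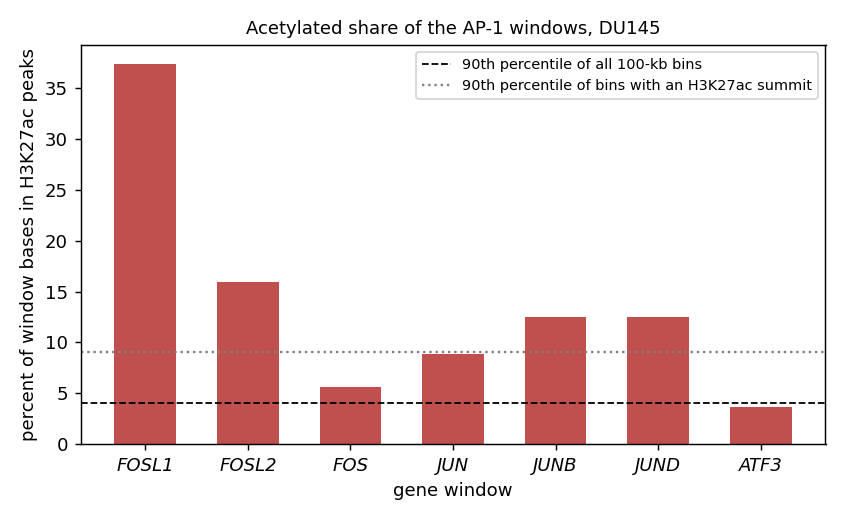
Percent of each AP-1 window in H3K27ac peaks (bars, 1 library), with the 90th percentile of all 100-kb bins (4.05%, dashed) and of bins with an H3K27ac summit (9.05%, dotted). FOSL1 stands highest at 37.4%, ATF3 at 3.63% is below both lines, and FOS and JUN lie between the lines.

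Fold enrichment, the authors' ratio of fragments at a peak's summit to local background, was used to rank peaks within a list. Of the 80 H3K27ac peaks 17 (21.3%, Wilson 95% interval 13.7 to 31.4) were among the strongest peaks, above the list's 90th percentile of fold at 16.8, against 9.99% of all peaks. Of the 17, 5 lay in the FOSL1 window. Neighbouring peaks are not independent, so the intervals of shares of peaks, here and below, are likely too narrow. They are no test against the list. The 22 peaks over the gene intervals themselves held 9 of the 17, or 40.9% of the 22. Peaks over other genes were not examined for comparison. The −log10 q was at least 10 in 40 of the 80 (50%, interval 39.3 to 60.7), against 43.4% of all peaks, a share within that interval. The median fold was 5.40 in the AP-1 windows and 4.55 in the whole list, and the folds ran down to 2.35. The median width was 778 bases in the AP-1 windows and 566 in the whole list. In every window the strongest peak over the gene was in the strongest 3.49% of the list. That peak is the highest of up to 10 per gene, while the list holds single peaks. The strongest peaks over other genes were not examined, so this does not set AP-1 genes apart.

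The strongest peak over each gene put FOSL1 first, FOSL2 second and the other 5 close together. Its fold was 65.1 for FOSL1, 52.8 for FOSL2, 31.4 for JUND, 29.5 for FOS, 29.2 for JUN, 29.2 for ATF3 and 26.8 for JUNB. The summit held 356 fragments for FOSL1 (exact Poisson 95% interval 320.0 to 395.0) and 253 for FOSL2 (223 to 286), and these intervals do not overlap each other or those of the other genes. JUND had 130 fragments (109 to 154), FOS 154 (131 to 180), JUN 121 (100.4 to 145), ATF3 121 (100.4 to 145) and JUNB 151 (128 to 177). These 5 intervals all overlap. They concern fragments, whose order differs from that of the folds, and the order of these 5 genes was not tested. Local background differed between the genes and enters the fold. It was 4.48 fragments at the FOSL1 summit, 3.81 at FOSL2, 4.26 at FOS, 4.67 at JUNB and 3.18 at JUND, JUN and ATF3. The value of 3.18, the lowest of the list, was shared by 30.6% of its peaks. It held for 10 of 13 peaks at JUNB, 11 of 12 at JUND, 4 of 7 at JUN, 4 of 19 at FOSL2, 1 of 6 at ATF3, 1 of 19 at FOSL1 and 0 of 4 at FOS. The part of the background in the order of the folds was not tested.

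**Figure D2:**
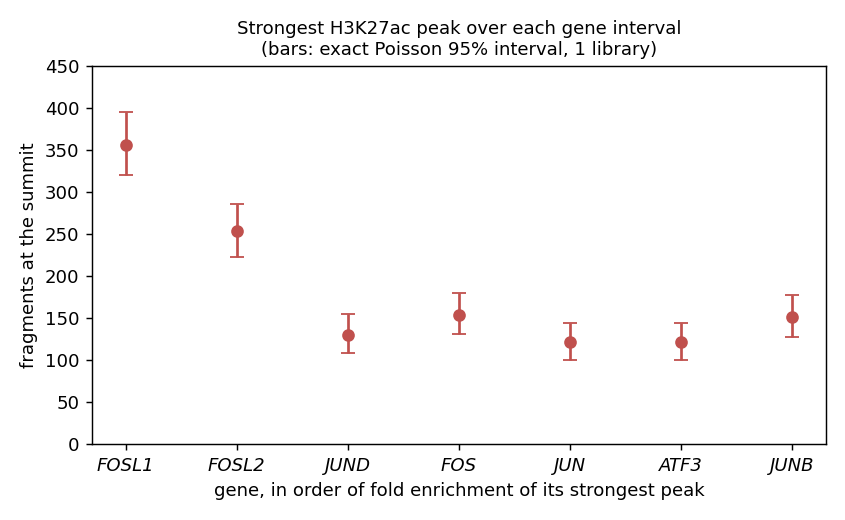
Fragments at the summit of the strongest H3K27ac peak over each gene interval, in order of fold enrichment, with exact Poisson 95% intervals (1 library, counting error only). FOSL1 (356) and FOSL2 (253) stand apart, and the other 5 genes lie between 121 and 154 with overlapping intervals.

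Among the FOS-type genes, FOSL1 (chromosome 11, 65659000 to 65668000 in hg19, minus strand) lay under a single long block of acetylation. The peak at chromosome 11, 65656105 to 65667950, was 11.8 kb long and covered 99.4% of the gene interval. It had the highest −log10 q of all 50364 H3K27ac peaks, 517.9, and was the fifth by fold and the twelfth by width. Its summit lay 0.443 kb into the gene. On the upstream side a peak of 3.81 kb (fold 18.8, 120 fragments) began after a gap of 188 bases. A block of 9.17 kb followed 9.43 kb upstream of the start, with a fold of 36.6 and 235 fragments, the 41st widest peak of the list. Farther along the gene's direction, 37.9 to 42.0 kb past the start, lay a peak of 4.11 kb (fold 24.5) beside one of 1.36 kb (fold 21.2). Of the 19 peaks 10 had folds under the list's median of 4.55. The next protein-coding genes in chromosome order are CCDC85B and FIBP on the side of the gene's end and C11orf68 and DRAP1 on the side of its start. Peaks were not assigned to genes, so which of them belong to FOSL1 and which to these neighbours cannot be told apart.

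FOSL2 (chromosome 2, 28616000 to 28638000, plus strand) had 1 strong peak and a trail of weak ones. The peak over its start, at chromosome 2, 28612660 to 28619507, was 6.85 kb long and reached from 3.34 kb upstream to 3.51 kb into the gene. Its rank by fold was 64 and its rank by width 105. The other 9 peaks over the gene had folds between 2.87 and 5.29 and 11 to 29 fragments, spread from 5.00 to 20.45 kb past the start. The 9 peaks outside the gene were no stronger than 6.97. A fold of 2.87 here rests on 11 fragments (5.49 to 19.7) over a background of 3.18, close to the smallest number in the list, 10.

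FOS (chromosome 14, 75745000 to 75749000, plus strand) had few peaks, each of them strong. The peak over its start, at chromosome 14, 75743373 to 75746278, ran from 1.63 kb upstream to 1.28 kb into the gene and covered 32.0% of the gene interval. Another, at 15.1 to 16.7 kb past the start, had a fold of 22.7 and 149 fragments, so its interval (126 to 175) overlaps that of the peak at the start (131 to 180). A pair lay 18.3 to 19.9 kb upstream, with folds of 16.5 and 11.2. None of the 4 was under 11.2, where the list's upper quartile is 8.38. The next protein-coding genes past FOS are JDP2 and BATF, themselves AP-1 relatives. Whether any of the peaks belongs to them was not examined.

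The JUN genes, JUN (chromosome 1, 59246000 to 59250000, minus strand), JUNB (chromosome 19, 12902000 to 12904000, plus strand) and JUND (chromosome 19, 18390000 to 18392000, minus strand), shared a layout at their starts. In JUN, JUNB and JUND, as in FOSL1, 2 H3K27ac peaks met within 1 kb of the start with a short gap between them. The gap was 218 bases in JUN (chromosome 1, 59249681 to 59249898), 126 bases in JUNB (chromosome 19, 12902145 to 12902270), 165 bases in JUND (chromosome 19, 18392414 to 18392578) and 188 bases in FOSL1 (chromosome 11, 65667951 to 65668138). In FOSL2 and FOS 1 peak ran across the start without a gap. The gene ends are known here to 1 kb only, so a gap cannot be placed on the start itself. Gaps of up to 500 bases are common, 23 in these windows and 13523 in the list. Such a gap bordered 39 of the 80 window peaks (48.8%, interval 38.1 to 59.5), against 46.8% of all H3K27ac peaks, so the windows were near the background. How often the starts of other genes have this layout was not examined.

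At JUN the peak on the upstream side of the gap had a fold of 29.2 and 121 fragments, and the one on the gene had 18.2 and 116 fragments over a higher background of 5.44. The fragment intervals of the pair (100.4 to 145 and 95.9 to 139) overlap. The other 5 peaks of the window were moderate, with folds of 5.51 to 8.38, at 31.1 to 32.6 kb upstream and at 19.02 to 29.9 kb past the start. At JUNB 93.7% of the gene interval was covered. The 2 peaks at the start had folds of 19.8 (96 fragments, upstream) and 26.8 (151 fragments, over and past the gene). A further strong peak 15.6 to 16.4 kb upstream had a fold of 20.8 and 86 fragments, and 8 of the 13 peaks had their summit upstream. At JUND the peak beyond the start had the higher fold, 39.5 from 164 fragments (140 to 191) against 31.4 from 130 (109 to 154) over the gene, and these intervals overlap. The summit of the peak over the gene was 0.112 kb from the rounded start, so its side cannot be told. Another 8 of the 12 peaks lay farther upstream, out to 42.8 kb, the strongest with folds of 16.3 and 15.3. The neighbours on that side are LSM4 and PGPEP1 in chromosome order. JUNB is followed by PRDX2 and THSD8, with HOOK2 and BEST2 before it.

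For ATF3 (chromosome 1, 212739000 to 212794000, plus strand) the start used was the 5′ end of its interval, and its other starts were not compared. Unlike the other genes, it had little acetylation at this upstream start. The nearest peak there, 0.945 to 1.62 kb into the gene, was weak, with a fold of 5.76 and 29 fragments (19.4 to 41.6). The strong acetylation lay elsewhere. A peak 5.99 to 7.41 kb upstream, at chromosome 1, 212731589 to 212733012, had a fold of 32.3 and 187 fragments (161 to 216). Another lay inside the gene, at chromosome 1, 212780975 to 212783211, 42.0 to 44.2 kb past the upstream start, with a fold of 29.2 and 121 fragments (100.4 to 145). ATF3 is known to be transcribed from more than 1 promoter. Positions of its other starts in hg19 were not used here, so the internal peak was not matched to any. In GRCh38.p14 its promoter entries begin at 212565157 and 212614768. These lie farther apart than the upstream start and the internal peak, though positions were not converted between builds. Of the 55.0-kb gene interval, 6.97% was acetylated.

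**Figure D3:**
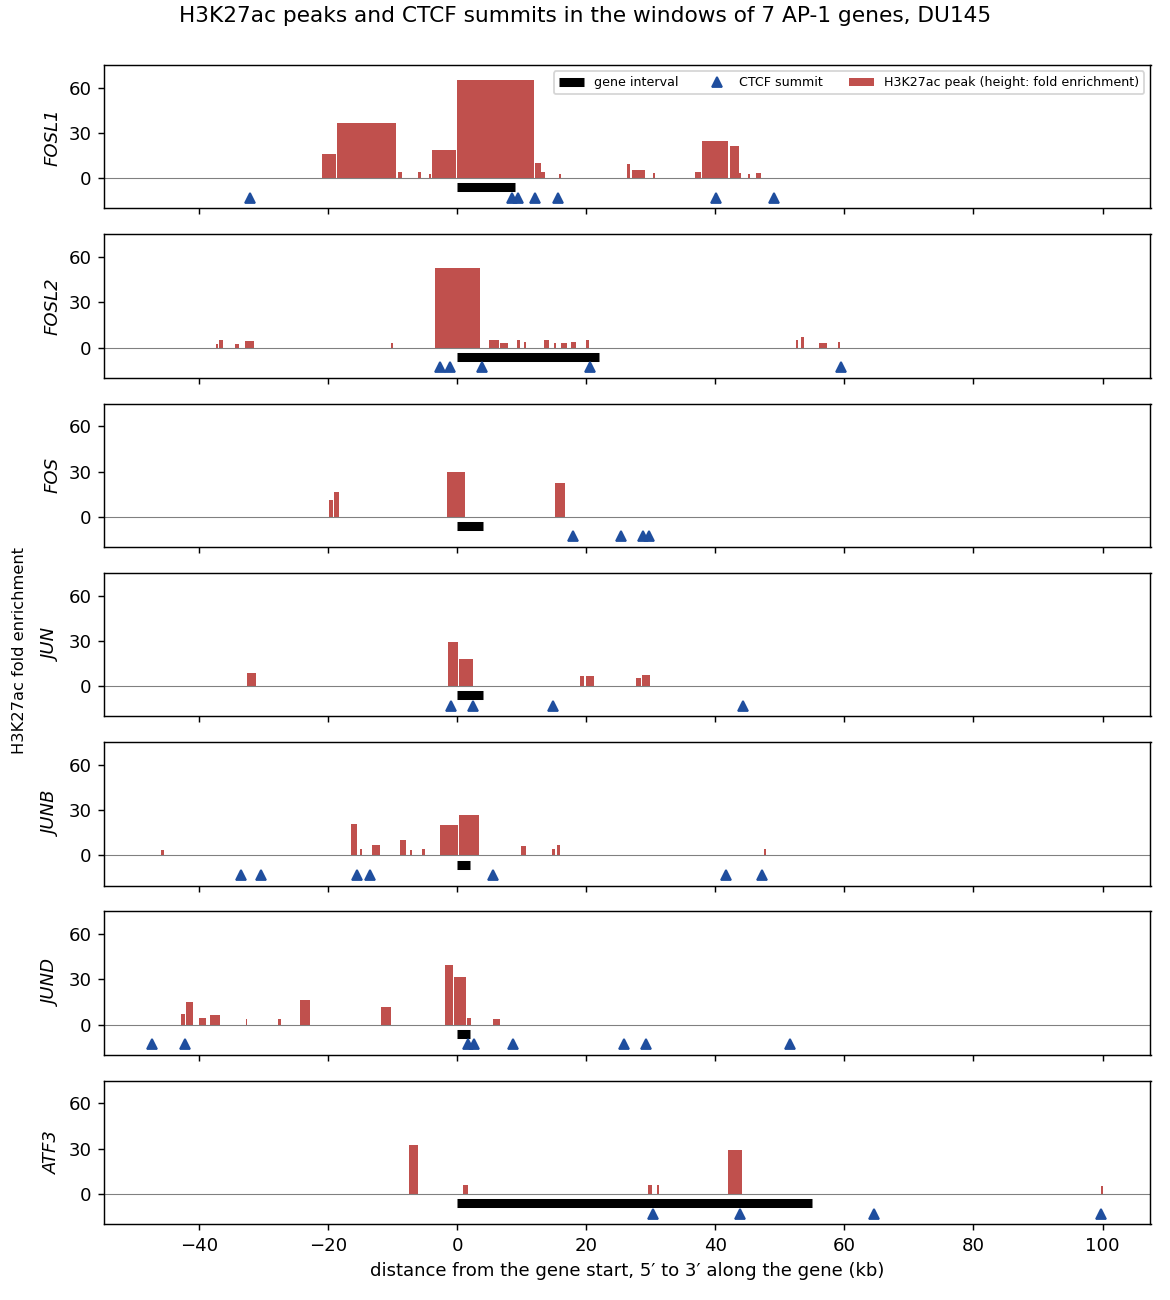
H3K27ac peaks (red bars, width to scale, height the fold enrichment) and CTCF summits (blue triangles) by distance from the gene start in kb, upstream to the left, with the gene interval in black. FOSL1 lies under a block of 11.8 kb and FOSL2 has 1 strong peak at its start, the JUN genes show 2 peaks that meet near the start, and the strong ATF3 peaks lie 5.99 kb and more upstream and 42.0 kb and more past the start.

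Neighbouring H3K27ac peaks up to 12500 bases apart were joined into domains and ranked by the sum of fold times width in kb. Of the 18213 domains 784 were large, meaning past the point where the ranked curve turns upward with a slope of 1. FOSL1, FOSL2, JUND and JUNB lay in large domains, and FOS, JUN and ATF3 did not. The FOSL1 domain was the second of all, as the sum of 19 peaks in 68.1 kb. That of FOSL2 ranked 96 (30.7 kb, 11 peaks), that of JUND 374 (49.5 kb, 12 peaks) and that of JUNB 380 (32.3 kb, 11 peaks). FOS ranked 1346 with a single peak and JUN 1394 with 2 peaks, above 92.6% and 92.3% of all domains. ATF3 overlapped 2 domains, at ranks 1779 and 2698. In all, 53 of the 80 H3K27ac peaks (66.3%) were in large domains, against 22.6% of the list. All of them lay in the domains of FOSL1, FOSL2, JUND and JUNB. Peaks of a domain share its call and are not independent, so no interval is given for this share. The score is a sum over peaks, so domains with many peaks tend to score higher. Counted by bases in peaks, the FOSL1 domain ranked 34.

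**Figure D4:**
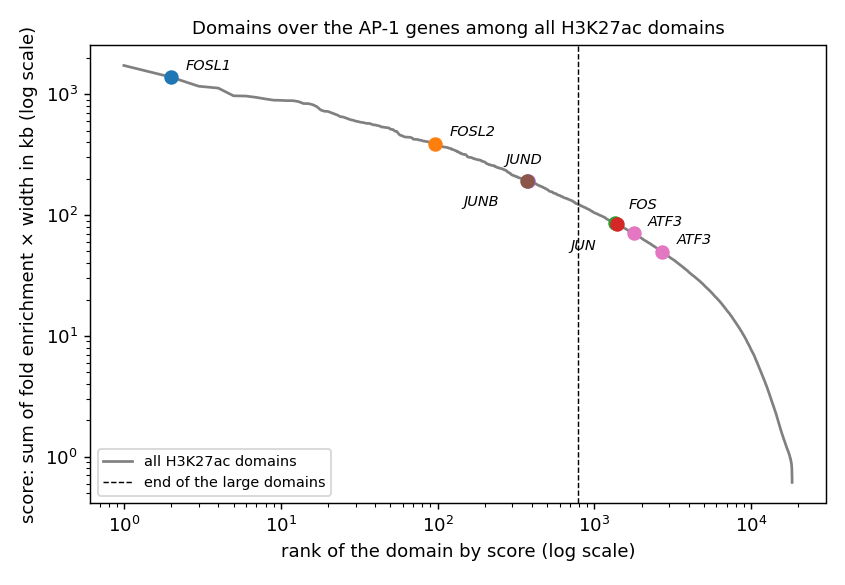
Score of each H3K27ac domain against its rank (both axes on a log scale), with the domains over the AP-1 genes as points and the end of the 784 large domains as a dashed line. FOSL1 (rank 2), FOSL2 (96), JUND (374) and JUNB (380) lie left of the line, FOS (1346), JUN (1394) and both ATF3 domains (1779 and 2698) right of it.

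CTCF peaks were present in every window, 7 at FOSL1, 5 at FOSL2, 4 at FOS, 4 at JUN, 7 at JUNB, 8 at JUND and 4 at ATF3. Their folds ran from 2.93 to 36.1. The median was 12.1 in the AP-1 windows and 9.52 in the whole list, and 6 of 39 (15.4%, interval 7.25 to 29.7) were above the list's 90th percentile, against 9.98% of all, a share within that interval. An H3K27ac peak overlapped 15 of the 39 CTCF peaks (38.5%, interval 24.9 to 54.1), against 14.2% of all CTCF peaks. Among CTCF peaks in 100-kb bins that were at least 10% acetylated the share was 43.9%, which lies within the interval of the AP-1 windows. The sets are not matched, because the windows of FOS, JUN and ATF3 were under 10% acetylated. The part of acetylation density in the overlap was not tested. Neighbouring peaks are not independent here either, so the intervals of these shares are likely too narrow. The summit lay inside an H3K27ac peak for 11 of 39 (28.2%, interval 16.5 to 43.8), against 8.40% of the list. With both lists held to a −log10 q of 10 or more, 7 of 31 overlapped (22.6%, interval 11.4 to 39.8), against 11.0%, just under the low end of that interval. In the other direction 13 of 80 H3K27ac peaks (16.3%, interval 9.75 to 25.8) overlapped CTCF, against 10.1% of all. A gap of up to 500 bases between H3K27ac peaks held 1 of the 39 summits, at JUNB, against 1.68% of the list.

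The layouts of CTCF differed from gene to gene. At FOSL1 5 of 7 peaks overlapped acetylation. The strongest, at chromosome 11 and 15.7 kb past the start, had a fold of 36.1 and 130 fragments (109 to 154) and ranked 85 in the CTCF list. It overlapped only a weak H3K27ac peak (fold 2.78, 13 fragments), and its summit lay outside that peak. Another 3 at 12.1, 9.44 and 8.56 kb had folds of 16.4, 5.16 and 7.31. On the upstream side the nearest CTCF summit was 32.1 kb away and weak (fold 2.93, 15 fragments), farther out than the last acetylated peak on that side, which ended 20.98 kb from the start. FOSL2 had CTCF summits 1.03 and 2.71 kb upstream of its start, inside the 6.85-kb acetylated peak, with folds of 8.00 and 5.75, and another 3.84 kb into the gene, just past that peak (fold 9.36). A weak one lay 20.6 kb into the gene (fold 4.32). The strongest CTCF peak of the FOSL2 window lay beyond the gene, 59.5 kb past the start (fold 15.1, 98 fragments).

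At FOS all 4 CTCF peaks lay past the gene, between 17.98 and 29.7 kb from the start, and none overlapped acetylation. The nearest of them was also the strongest, with a fold of 26.9 and 126 fragments (105 to 150.0), and it stood just beyond the acetylated peak at 15.1 to 16.7 kb. On the upstream side of FOS the next CTCF summit was 136 kb away, outside the window. At ATF3, too, no CTCF peak lay upstream in the window. Its 4 CTCF summits lay 30.4, 43.8, 64.6 and 99.7 kb past the upstream start, and the next one upstream was 88.3 kb away. The summit at 43.8 kb lay inside the internal acetylated peak (CTCF fold 9.85, 38 fragments). The one at 99.7 kb was the strongest, with a fold of 29.9.

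JUN had a CTCF summit 0.935 kb upstream of its start, within the acetylated peak there (fold 11.8, 40 fragments), and a weak one 2.43 kb into the gene at the edge of the other peak (fold 4.61, 15 fragments). At JUND a CTCF peak lay inside the gene, 1.64 kb from the start, with a fold of 24.1 and 83 fragments (66.1 to 103). It overlapped the weaker of the peaks over the gene, whose H3K27ac fold was 4.55. The gene's 2 strong H3K27ac peaks held no CTCF peak. JUNB had the highest median fold of CTCF, 18.6, with no CTCF peak in the gene. Its nearest summits were 5.54 kb past the start (fold 15.7) and 13.4 kb upstream (fold 23.2), and the strongest lay 41.6 kb past the start (fold 30.1, 104 fragments). The acetylated cluster around JUNB, 32.3 kb long, held 3 CTCF summits. That of JUND held 3, that of FOSL2 3, that of FOSL1 5, that of JUN 1 and that of FOS 0. Of the domains over ATF3 the upstream one held 0 and the internal one 2.

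**Figure D5:**
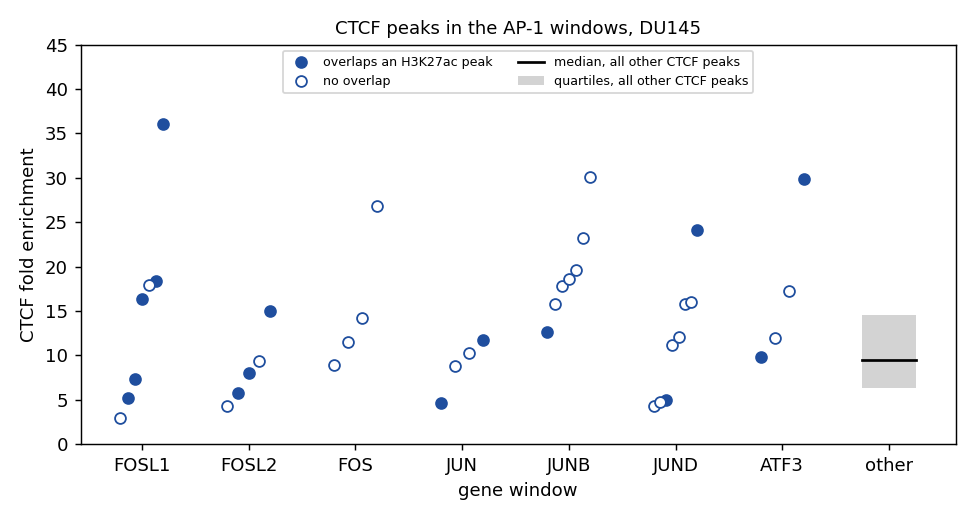
Fold enrichment of each CTCF peak in the 7 windows (points, filled where an H3K27ac peak overlaps) beside the quartiles and the median of all other CTCF peaks. FOSL1 has the highest fold (36.1) and 5 filled points, none of the 4 FOS peaks is filled, and at JUNB 1 of 7 is. The highest FOSL1 point is filled through a weak H3K27ac peak (fold 2.78).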

How the data were processed

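Bowtie, MACS2 and the build hg19 are named in the submitters' processing notes. Their versions and settings, and which input served each list, were not given in the sources used here. Per the labels each list belongs to a single library. The authors deposited peak positions with a score, a fold (the ratio of signal to local background at the summit) and −log10 values of p and q. The score is the −log10 q times 10, cut to a whole number, and was not used. Fragment numbers were solved from fold and −log10 p. With 1 added to fragments and background, and CTCF fragments multiplied by 0.911, every peak was solved within a tolerance of 0.002. The solver was tested on simulated data. Summits held a median of 23 H3K27ac and 45 CTCF fragments. Overlap needed 1 base. Gene intervals are hg19 positions rounded to 1 kb, and a start is the interval's 5′ end. All 7 genes are named, with the strongest H3K27ac peak over each gene interval. For each window the strongest and widest H3K27ac peaks and the nearest and strongest CTCF peaks are described. Other peaks are given in part, long lists by their range. Members, windows and lists were chosen with earlier results of these data known. Alternatives changed the windows, the q threshold, the overlap rule and the joining of domains. Python 3.11.15, pandas 2.3.3 and SciPy 1.17.1 were used.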

Additional observations from a re-analysis of the deposited data

How the results depend on the processing

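Of 23 alternatives 16 stayed within 1.5 times the value (counts) or within its interval (4.55 to 6.97 for the median fold, 13.27 to 13.42 for the percent acetylated), and 7 did not. The interval of the percent counts bases and is so narrow that nearly any other window leaves it, and the 3 percents outside it differ from 13.3% by less than 1.5 times. Windows of 25 kb held 24 CTCF peaks and were 18.9% acetylated, and windows of 100 kb were 8.94% acetylated. With a −log10 q of 10 or more there were 40 H3K27ac peaks, 10.2% of bases acetylated and a median fold of 15.6, and 7 CTCF peaks overlapped acetylation. The stricter threshold removes weak peaks by construction, and for the windows the cause was not tested. FOSL1, FOSL2, JUNB and JUND lay in large domains under all 4 alternatives for domains. The comparison with bins at least 10% acetylated was chosen after seeing the data. No paired analysis was possible because each mark has 1 library, and for the same reason no replicate could be left out. The weakest peak of the windows by fragments held 11, so the order of such peaks is uncertain.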
